A study of Mus musculus with 8 samples.

Results

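The miR-378 family was followed in small RNA sequencing of mouse cardiomyocytes through its 5 mature miRNAs, mmu-miR-378a-3p, mmu-miR-378a-5p, mmu-miR-378b, mmu-miR-378c and mmu-miR-378d. They were chosen by name, as miR-378a and its paralogs, and all 5 were found among the 697 miRNAs listed in each count table. The study compared 4 mice that had undergone transverse aortic constriction (TAC), in which a band on the aortic arch overloads the left ventricle, with 4 sham-operated mice. All were male mice operated on at 2 months of age, no engineered allele or further agent is given for either group, and per the methods the hearts had reached the failing stage 14 weeks after surgery. Cardiomyocytes were freed from each heart on a Langendorff perfusion system, and the RNA of a portion of the myocytes of 1 heart went into each library, so each library stands for 1 mouse.

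In mice, miR-378a is made from a hairpin within an intron of Ppargc1b, the gene of the transcriptional coactivator PGC-1β, which drives mitochondrial and lipid oxidation genes. Its more abundant strand, the 3p arm, is known as a brake on energy metabolism whose targets include carnitine acetyltransferase, and in heart muscle it is known to act on the IGF1 receptor and on MAPK signaling. The 5p arm is the other strand of the same hairpin and is known to target Med13, a subunit of the Mediator complex, while miR-378b, miR-378c and miR-378d are paralogs encoded elsewhere in the genome.

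The sequences of the 3 paralogs are shown because they differ by few bases, so that reads of one could be counted as another. They are RefSeq mature sequences on GRCm38.p6, written 5′ to 3′, with the seed (bases 2 to 8, which pair with a target) in capitals.
mmu-miR-378b: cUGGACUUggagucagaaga
mmu-miR-378c: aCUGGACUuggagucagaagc
mmu-miR-378d: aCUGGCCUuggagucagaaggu
mmu-miR-378b lies at chr11:88352839-88352858 on the plus strand, within an intron of Msi2 but on the opposite strand to that gene. mmu-miR-378c lies at chr14:46954905-46954925 on the minus strand, within an intron of Samd4 and again on the opposite strand. mmu-miR-378d lies at chr10:126710355-126710376 on the minus strand, where GENCODE vM21 has no other gene.

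The 20 bases of mmu-miR-378b and the 21 of mmu-miR-378c share an unbroken run of 19 bases. The run starts at base 1 of mmu-miR-378b and at base 2 of mmu-miR-378c, and the remaining difference is A20C (mmu-miR-378b first, positions counted from 1 at the 5′ end of mmu-miR-378b). The shift by 1 base gives them different seeds. mmu-miR-378c and mmu-miR-378d start at the same base and differ by A6C, which lies in the seed, and by C21G, and the 22-base mmu-miR-378d has 1 base more (mmu-miR-378c first, positions counted from its 5′ end). The 3 paralogs thus had 3 different seeds. The sequence table matched 3 of the 5 members, so mmu-miR-378a-3p and mmu-miR-378a-5p were not part of this comparison. How a read that fits more than 1 miRNA was counted is not given in the sources used here, so the counts of mmu-miR-378b and mmu-miR-378c are uncertain to that extent. Whether any paralog shares reads with mmu-miR-378a-3p was not tested, and the same uncertainty holds for every ratio or correlation between them.

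The 8 libraries held between 4005668 and 5392576 miRNA counts in the sham group (median 4767551, n = 4) and between 5507169 and 7798943 in the TAC group (n = 4), and no 2 libraries were identical. Levels were expressed as CPM, the count scaled to a library of 1000000 miRNA counts. The methods take miR-126a-3p with miR-19b-3p as internal references, so values were also given as reference-scaled CPM. There, TAC values are divided by 0.537, the factor (a geometric mean) by which the pair differs between the groups. All TAC libraries share this factor and sham values stay unchanged, so the spread of the references between libraries does not enter. Reference factors taken for each library ran from 1.03 (Sham1) to 1.61 (Sham2) and from 0.69 (TAC2) to 0.81 (TAC4). By library total, both references were lower in all TAC libraries than in any sham library, so the reference scaling lifts all TAC values. TMM (a trimmed mean of the fold changes of all miRNAs) and library totals are given beside it. The 6 cardiomyocyte miRNAs of a marker list were all detected and summed to between 164096 and 200916 CPM in sham and between 198416 and 248898 CPM in TAC. The endothelial pair, miR-126a-3p and miR-126a-5p, summed to between 49248 and 72051 CPM in sham and to between 29274 and 34557 CPM in TAC, below every sham library. One of that pair is also a reference miRNA. In these bulk libraries, fewer cells of a type and less RNA per cell cannot be told apart, and the part of these differences in the results below was not tested. Summed miRNAs of the erythroid, fibroblast and smooth muscle, epithelial, leukocyte, brown fat, skeletal muscle and liver lists overlapped between the groups. The epithelial sum ran from 318 to 497 CPM in sham and from 283 to 1594 CPM in TAC.

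The family held a steady order of levels in all 8 libraries, with mmu-miR-378a-3p first, then mmu-miR-378c, mmu-miR-378a-5p, mmu-miR-378b and mmu-miR-378d. On the scale of CPM by library total, no neighbours in that order overlapped. The lowest mmu-miR-378a-3p was 30481 CPM against a highest mmu-miR-378c of 13797 CPM. The lowest mmu-miR-378c was 4770 CPM against a highest mmu-miR-378a-5p of 663 CPM. The nearest neighbours were mmu-miR-378b, down to 53.7 CPM, and mmu-miR-378d, up to 42.3 CPM. mmu-miR-378a-3p was among the most abundant miRNAs of these cells and ranked 9 of 697 by total count, while mmu-miR-378c ranked 27, mmu-miR-378a-5p 71, mmu-miR-378b 125 and mmu-miR-378d 190. Each count stands for whole molecules of nearly equal length, but library preparation can favor some sequences, and that was not measured here.

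Of all miRNA counts, the 5 members together made up 5.07% ± 1.06 in the sham group and 4.60% ± 0.711 in the TAC group (SD over 4 libraries). The share ran from 3.70% in Sham2 to 6.19% in Sham1, and the TAC libraries lay within that range. mmu-miR-378a-3p made up 81.9% ± 3.94 of the family counts in sham and 83.3% ± 1.58 in TAC (SD over 4 libraries), and mmu-miR-378c 16.7% ± 3.86 and 15.1% ± 1.58. The other 3 members added little, the largest being mmu-miR-378a-5p with 1.14% ± 0.218 in sham and 1.29% ± 0.139 in TAC.

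mmu-miR-378a-3p, the abundant arm, had 218188, 164369, 225357 and 166862 counts in Sham1 to Sham4. It had 220050, 347556, 232612 and 230368 counts in TAC1 to TAC4. By library total these were 47143, 30481, 45927 and 41657 CPM in sham and 39957, 44565, 36688 and 31892 CPM in TAC, and these overlapped, with Sham2 the lowest of all. After the reference scaling, with the same factor for all TAC libraries, these stood at 74434, 83017, 68344 and 59411, each above every sham library.

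mmu-miR-378a-5p, the other strand of the same hairpin, had 2998, 2887, 3063 and 1842 counts in Sham1 to Sham4 and 3649, 4573, 3868 and 3607 in TAC1 to TAC4. In CPM by library total the sham libraries held 648, 535, 624 and 460 and the TAC libraries 663, 586, 610 and 499.4. The groups overlapped almost wholly on that scale. The reference-scaled TAC values of 1234, 1092, 1136 and 930 were each above the highest sham library.

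mmu-miR-378c, the most abundant paralog, had 63855, 31475, 40753 and 26539 counts in Sham1 to Sham4 and 42991, 68363, 43286 and 34458 in TAC1 to TAC4. By library total it had 13797, 5837, 8305 and 6625 CPM in sham and 7806, 8766, 6827 and 4770 CPM in TAC. Sham1 was the highest library and TAC4 the lowest. After the reference scaling TAC was at 14542, 16329, 12718 and 8887, and TAC3 and TAC4 still lay below Sham1.

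mmu-miR-378b had between 316 and 1056 counts in the sham and between 388 and 939 in the TAC libraries. These were 228, 83.6, 116 and 78.9 CPM by library total in Sham1 to Sham4 and 126.2, 120.4, 92.1 and 53.7 in TAC1 to TAC4. Sham1 again stood highest and TAC4 lowest, and the reference-scaled TAC values of 235, 224, 172 and 100 overlapped with sham.

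mmu-miR-378d, the scarcest member, had between 106 and 287 counts over the 8 libraries. At these counts counting error alone was between 5.90% and 9.71% of the value. By library total it had 42.3, 25.0, 36.3 and 26.5 CPM in Sham1 to Sham4 and 32.3, 36.8, 20.98 and 27.8 CPM in TAC1 to TAC4, and the TAC range began below and ended within that of sham. After the reference scaling TAC stood at 60.2, 68.6, 39.1 and 51.8, where of the TAC libraries only TAC3 lay below a sham library.

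**Figure D1:**
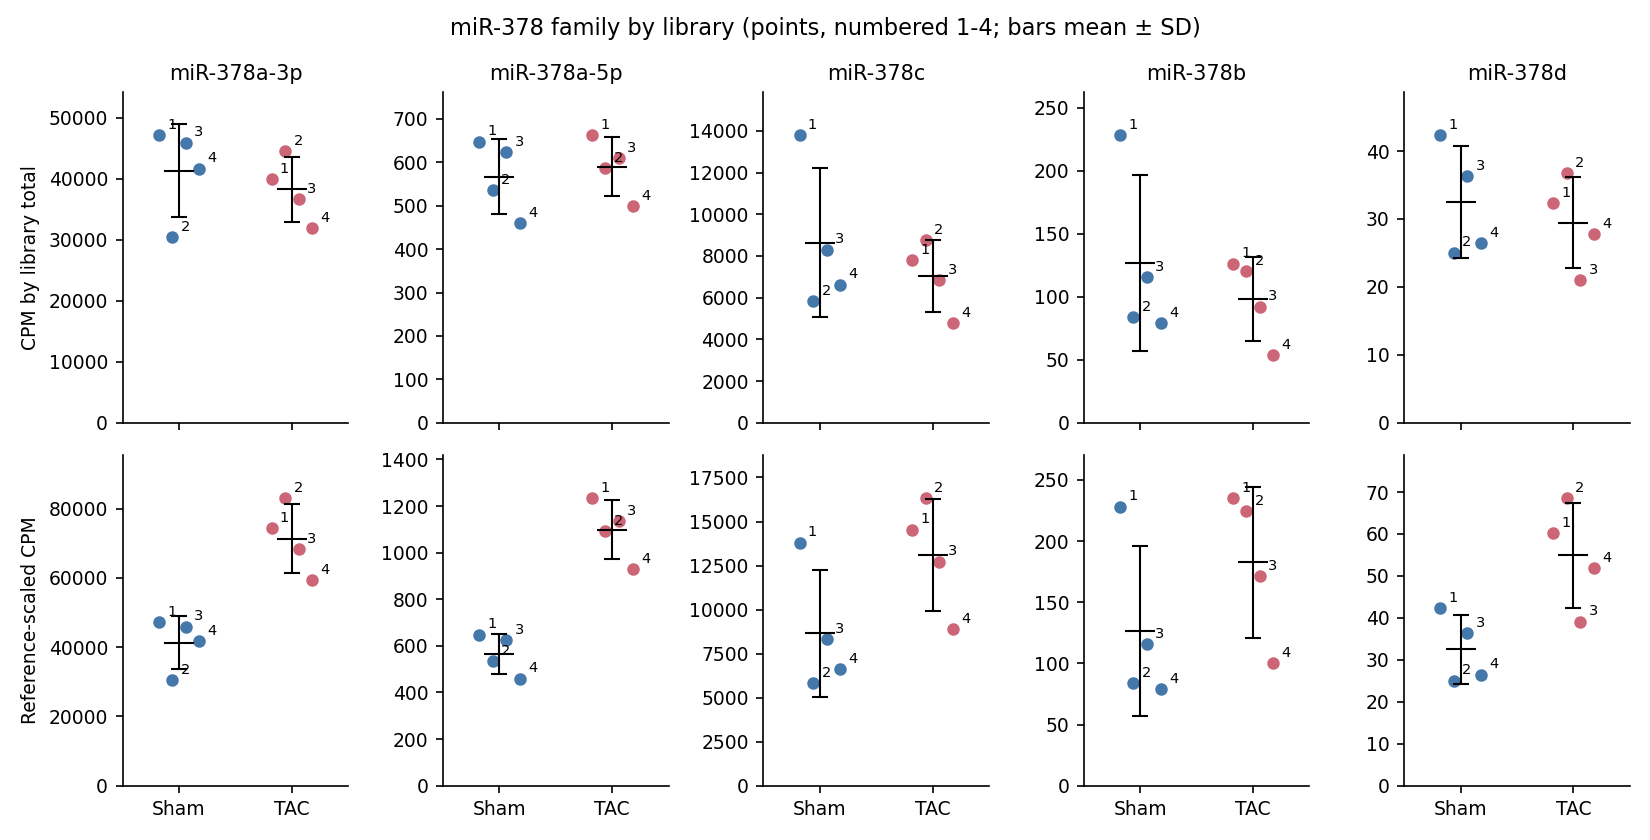
Level of each member in the 8 libraries (points, numbered 1 to 4 within each group; bars are mean ± SD), in CPM by library total in the upper row and in reference-scaled CPM in the lower row. The reference scaling uses the same factor for all TAC libraries. In the upper row the groups overlap for all 5 members, and in the lower row the TAC libraries all lie above the sham libraries for mmu-miR-378a-3p and mmu-miR-378a-5p alone.

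On reference-scaled CPM the TAC libraries all lay above the sham libraries in 2 of the 5 members, and by library total in none. Among the miRNAs whose mean exceeded 100 counts, a filter passed by the 5 members and 218 other miRNAs, this held in 54.7% on reference-scaled CPM and in 3.59% by library total. Neither count is therefore particular to the family.

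The comparison of TAC with sham asked whether the family changes in heart failure, and the answer turned on the scaling. With the reference scaling, 2 members were called higher and none lower, where a call needs both an adjusted p below 0.05 and a change of more than 1.7-fold. The study set the same fold beside an unadjusted p. Fits were made on the counts with edgeR's quasi-likelihood test over these 5 and 218 miRNAs, with Benjamini-Hochberg adjustment over all of them. In the same fit 36.8% of all miRNAs were called higher and 0.897% lower. By TMM none of the 5 members was called, beside 1.35% of all miRNAs called higher and 4.48% lower. By library totals none was called either, beside 0.448% higher and 10.3% lower, and under both of these scalings none of the 5 reached an unadjusted p below 0.05 in edgeR. DESeq2 with its own size factors called none. Of the marker lists, the same reference-scaled fit called higher 5 of the 6 cardiomyocyte miRNAs tested, 6 of 7 epithelial, 1 of 6 fibroblast and smooth muscle, 1 of 5 leukocyte and 1 of 3 brown fat miRNAs, and none of the endothelial, erythroid or skeletal muscle lists, with none called lower. Their part in the family's values was not tested.

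mmu-miR-378a-3p rose from 41302 ± 7588 to 71301 ± 9953 reference-scaled CPM (SD, n = 4 each), a log2 fold change of 0.79 (standard error 0.16, edgeR adjusted p = 0.00221). By TMM its log2 fold change was 0.10 (edgeR adjusted p = 0.701), and by library totals it was -0.11. In the exact permutation test on the reference-scaled values, with the factor computed anew in each arrangement, p was 0.0571, where 0.0286 is the smallest that 4 against 4 libraries can give. The call was lost for its fold change without Sham2 (log2 fold change 0.58), without Sham3 (0.76) or without TAC2 (0.67), and likewise with miR-126a-3p as the only reference (0.69) or a reference factor for each library (0.73).

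mmu-miR-378a-5p rose from 567 ± 86.2 to 1098 ± 127 reference-scaled CPM (SD, n = 4 each), a log2 fold change of 0.95 (standard error 0.15, edgeR adjusted p = 6.94e-04). It had the largest log2 fold change of the 5 and ranked 48 from the top among all miRNAs tested, and the call held with each library left out. The exact permutation p for mmu-miR-378a-5p, with the factor computed anew in each arrangement, was 0.0571. By TMM the log2 fold change was 0.27 (edgeR adjusted p = 0.226) and by library totals 0.057.

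mmu-miR-378d followed both arms of miR-378a in fold change. It had 32.5 ± 8.23 and 54.9 ± 12.6 reference-scaled CPM in sham and TAC (SD, n = 4 each), a log2 fold change of 0.76 (standard error 0.24, edgeR adjusted p = 0.0218). Its fold change of 1.69 fell just short of the cut-off, and the adjusted p passed the threshold with all libraries but not without Sham2 (0.0872), Sham3 (0.0611) or TAC2 (0.0815). The exact permutation p for mmu-miR-378d, with the factor computed anew in each arrangement, was 0.0857. By TMM its log2 fold change was 0.08 and by library totals -0.14.

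mmu-miR-378c had 8641 ± 3588 and 13119 ± 3184 reference-scaled CPM in sham and TAC (SD, n = 4 each), a log2 fold change of 0.60 (standard error 0.28) that did not pass the test (edgeR adjusted p = 0.0799). mmu-miR-378b had 127 ± 69.7 and 182.8 ± 61.7, a log2 fold change of 0.53 (standard error 0.37, edgeR adjusted p = 0.235). By TMM their log2 fold changes were -0.075 and -0.14, and by library totals -0.30 and -0.37. For both paralogs 1 library weighed heavily. Without Sham1 the log2 fold changes were 1.04 for mmu-miR-378c (edgeR adjusted p = 0.00273) and 1.09 for mmu-miR-378b (adjusted p = 0.0105), and all 5 members were called higher, in a fit that called 47.5% of all miRNAs higher with a median log2 fold change of 0.73. Without TAC4, mmu-miR-378c also passed (log2 fold change 0.80, edgeR adjusted p = 0.0266), and the log2 fold change of mmu-miR-378b was 0.79 (adjusted p = 0.0761). Without Sham2 the values fell to 0.37 for mmu-miR-378c and 0.29 for mmu-miR-378b.

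The median log2 fold change of the 5 members was 0.76 with the reference scaling, 0.08 by TMM and -0.14 by library totals. The median of all miRNAs tested was 0.61, -0.08 and -0.29 on the same scalings. Ranked from the highest fold change of all tested with the reference scaling, 4 members stood at 48, 79, 86 and 114, and mmu-miR-378b lower.

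**Figure D2:**
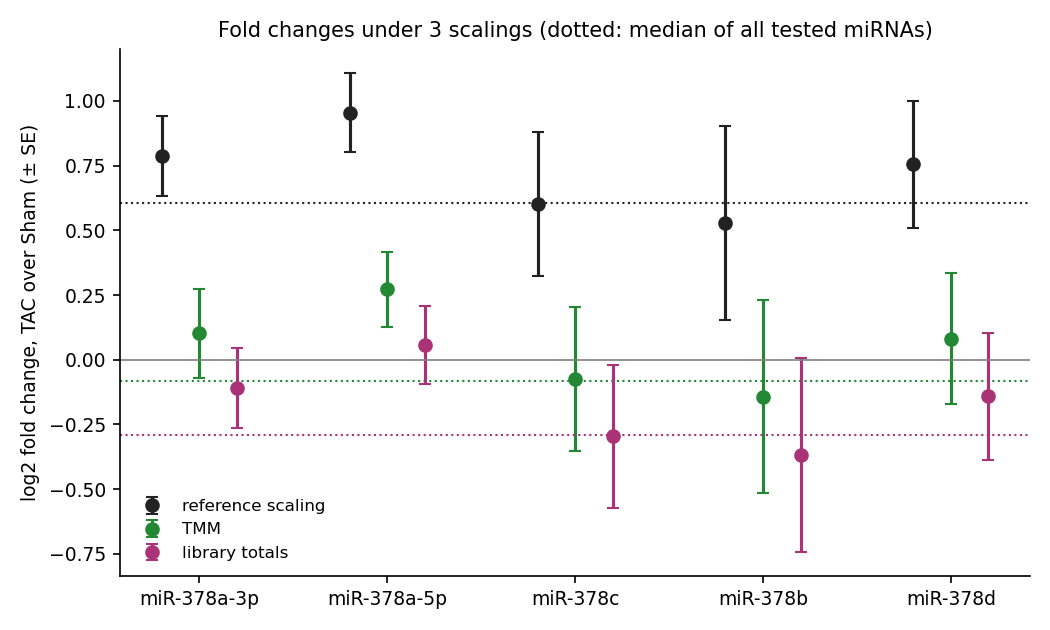
Log2 fold change of TAC over sham (± SE, edgeR, 4 libraries a group) for the 5 members under 3 scalings, with the median of all miRNAs tested as a dotted line of the same color. The reference scaling places all 5 above 0, library totals place 4 of them below 0, and on each scaling mmu-miR-378a-5p is highest and mmu-miR-378b lowest.

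A ratio of 2 counts from 1 library does not depend on the scaling, so the members were compared with each other in this way. mmu-miR-378c amounted to 29.3%, 19.1%, 18.1% and 15.9% of mmu-miR-378a-3p in Sham1 to Sham4 and to 19.5%, 19.7%, 18.6% and 14.96% in TAC1 to TAC4. Sham1 stood above the other 7 libraries, which lay close together, and the difference in mean log2 ratio between TAC and sham was -0.15 (standard error 0.21, exact permutation test, two-sided p = 0.629). The corresponding difference was -0.20 for mmu-miR-378b (standard error 0.34, exact permutation p = 0.571) and -0.04 for mmu-miR-378d (standard error 0.17, exact permutation p = 0.743).

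The arms of the miR-378a hairpin were set against each other in the same way. mmu-miR-378a-5p amounted to 1.37%, 1.76%, 1.36% and 1.10% of mmu-miR-378a-3p in Sham1 to Sham4 and to 1.66%, 1.32%, 1.66% and 1.57% in TAC1 to TAC4. The TAC libraries lay within the sham range, and the difference in mean log2 ratio was 0.16 (standard error 0.16, exact permutation p = 0.371). Among 43 hairpins with both arms above a mean of 100 counts, the groups did not overlap in 4 (9.30%), all with a lower 5p share in TAC, and miR-378a was not one of them. Over these hairpins the difference ran from -0.94 to 0.43 with a median of -0.11, and 29 hairpins moved further than miR-378a in either direction. miR-378a ranked 5 of the 43 in its excess of the 3p arm.

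**Figure D3:**
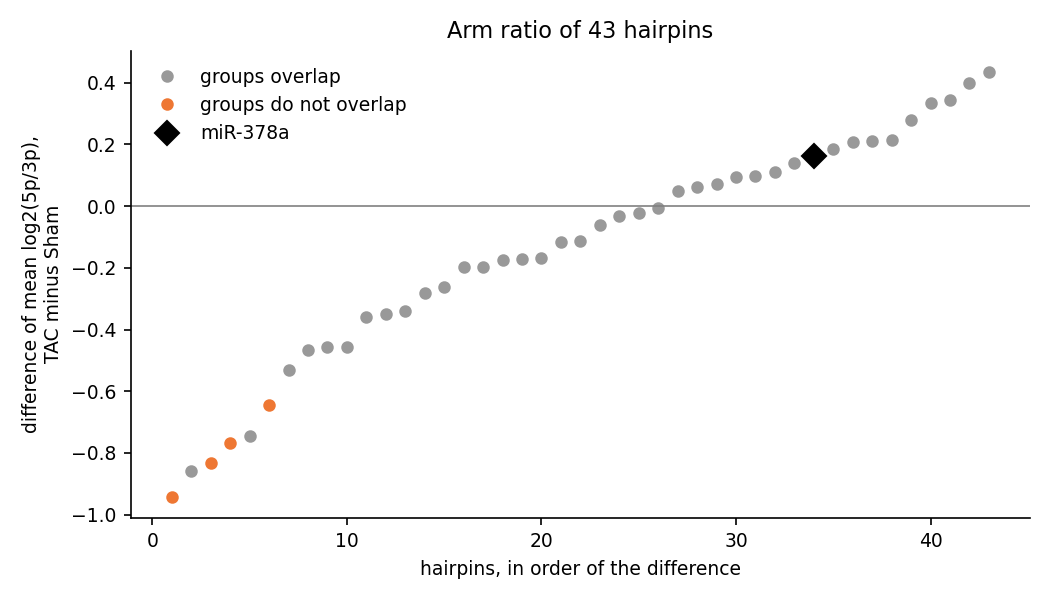
Difference between TAC and sham in the mean log2 ratio of the 5p to the 3p arm, for each of 43 hairpins in order of that difference. Orange points mark the 4 hairpins whose groups do not overlap, and miR-378a (black diamond) lies at 0.16, rank 10 from the highest.

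The near-identical paralogs mmu-miR-378b and mmu-miR-378c kept the closest proportion in the family. mmu-miR-378b amounted to 1.65%, 1.43%, 1.39% and 1.19% of mmu-miR-378c in Sham1 to Sham4 and to 1.62%, 1.37%, 1.35% and 1.13% in TAC1 to TAC4. The difference between the groups was -0.06 in log2 (standard error 0.14, exact permutation p = 0.657). Libraries with the same number differed by at most 0.08 in log2, although the ratio spanned 0.47 among the sham and 0.52 among the TAC libraries, and the libraries numbered 1 were highest and those numbered 4 lowest in both groups. This likeness by number was seen in the values and not sought beforehand. The methods describe the sham and TAC mice as 4 pairs. Neither the labels nor the methods say what a number shared by both groups stands for, or tie a pair to a number. The likeness did not hold for mmu-miR-378a-5p or mmu-miR-378d over mmu-miR-378a-3p, where same-numbered libraries differed by up to 0.50 and 0.47. Over mmu-miR-378a-3p, TAC1 differed from Sham1 by -0.58 for mmu-miR-378c and -0.62 for mmu-miR-378b, while TAC4 differed from Sham4 by -0.089 and -0.17, and the libraries numbered 2 and 3 differed less.

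**Figure D4:**
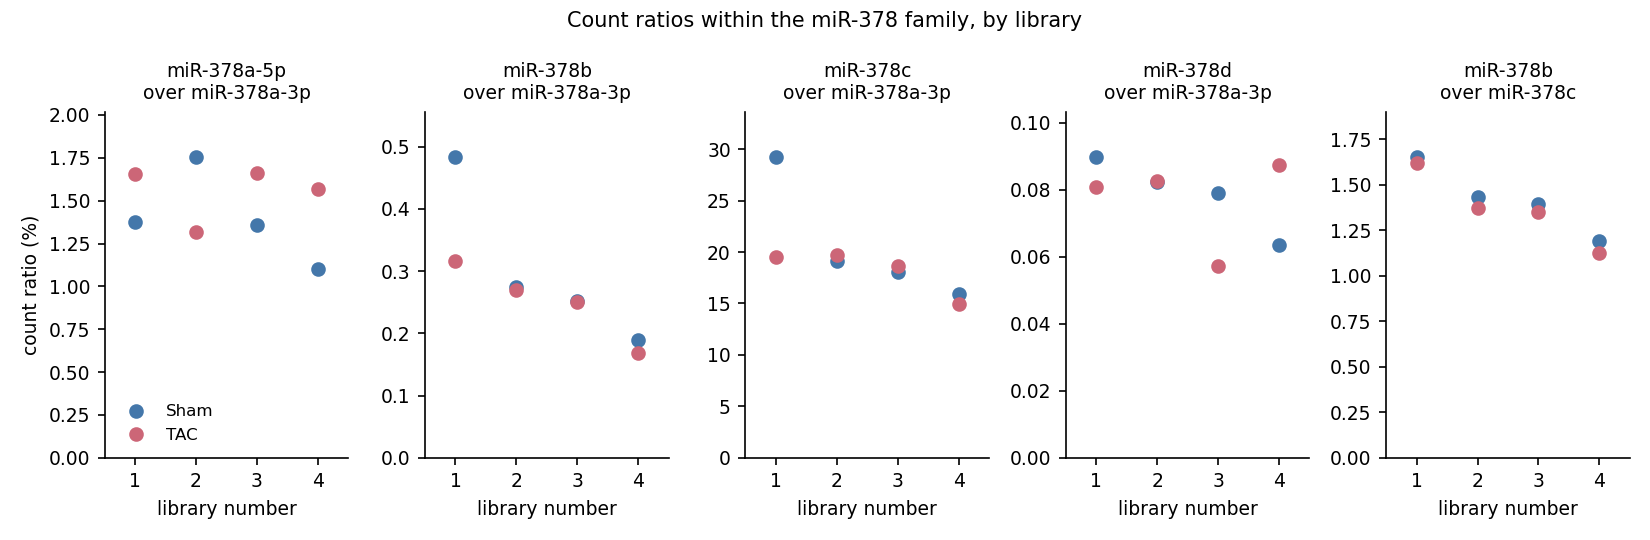
Count ratio, in percent, of 4 members over mmu-miR-378a-3p and of mmu-miR-378b over mmu-miR-378c in each library, plotted by library number (blue sham, red TAC). The groups overlap in all 5 panels, and in the last panel the same-numbered sham and TAC libraries differ by at most 0.08 in log2.

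mmu-miR-378a-3p was also set against miRNAs for which cardiac muscle is known. Its count was between 50.9% and 80.0% of miR-133a-3p in sham and between 55.4% and 64.5% in TAC, a difference of -0.02 in mean log2 ratio (standard error 0.17, exact permutation p = 0.914). Over miR-208a-3p, the miRNA of the Myh6 intron, the difference was 0.18 (exact permutation p = 0.286), and over miR-499-5p, from a Myh7b intron, -0.13 (exact permutation p = 0.629). The widest gap among these muscle miRNAs was over miR-1a-3p, the most abundant miRNA of the libraries, where mmu-miR-378a-3p amounted to 45.2%, 28.2%, 48.9% and 32.4% in Sham1 to Sham4 and to 33.01%, 29.5%, 21.8% and 16.6% in TAC1 to TAC4, a difference of -0.63 (standard error 0.29, exact permutation p = 0.143). Over the reference miRNAs the ratio was higher in TAC by 0.65 for miR-126a-3p (standard error 0.30, exact permutation p = 0.114) and by 0.90 for miR-19b-3p (standard error 0.34, exact permutation p = 0.0571). Without Sham1 the first of these was 0.91, and without TAC4 the second was 1.12, each then at the smallest p of the exact permutation test with 4 against 3 libraries, 0.0286. All 11 ratios compared overlapped between the groups, and their p-values adjusted over the 11 were 0.524 or higher.

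**Figure D5:**
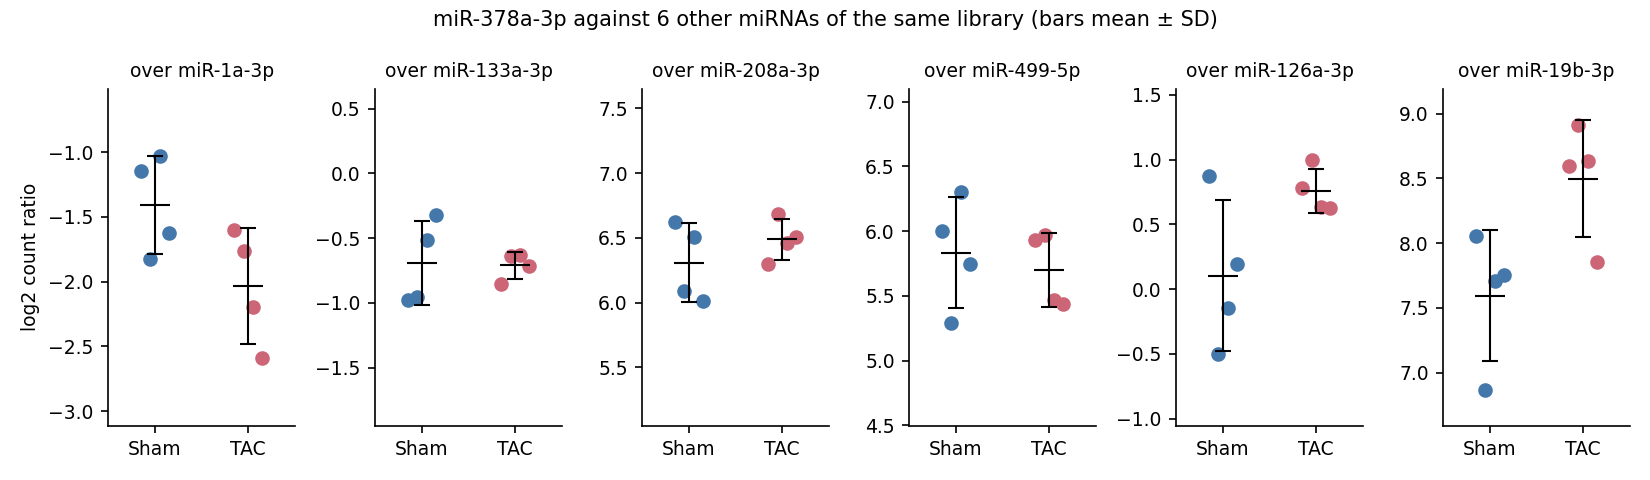
Log2 ratio of the count of mmu-miR-378a-3p to that of 4 muscle miRNAs and the 2 reference miRNAs in each library (bars are mean ± SD, n = 4 a group, each panel spanning the same range of log2 units). The mean difference runs from -0.63 over miR-1a-3p to 0.90 over miR-19b-3p, and the groups overlap in all 6 panels.

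The miRNAs whose level followed mmu-miR-378a-3p most closely over the 8 libraries were mostly its own family by library total, but not after the reference scaling. On log2 CPM by library total, among 222 other miRNAs, Pearson's r was 0.84 with mmu-miR-378c, 0.75 with mmu-miR-378b and 0.74 with mmu-miR-378d, ranks 1, 2 and 4, but 0.46 with mmu-miR-378a-5p, rank 38. Outside the family the closest were miR-700-3p (0.74), miR-328-3p (0.71), miR-744-5p (0.67), miR-107-3p (0.66) and miR-1839-5p (0.65). mmu-miR-378c followed mmu-miR-378b with r = 0.98, then miR-133a-3p (0.92), miR-29c-3p (0.87), miR-107-3p (0.86), miR-34a-5p (0.86) and miR-328-3p (0.85). These correlations are descriptions over 8 libraries that share their denominators. With reference-scaled values, in which a common factor lifts the TAC libraries, the family stood at ranks 11 (mmu-miR-378a-5p), 18 (mmu-miR-378d) and 50 (mmu-miR-378c), with mmu-miR-378b lower still, for likeness to mmu-miR-378a-3p, and 2 of the 5 outside miRNAs were kept in its top 5.

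Other miRNAs known for lipid, glucose or mitochondrial metabolism, or for ties to the PGC-1 genes, were taken as a list of 28 names, of which 24 were measured and 18 passed the count filter. With the reference scaling 5 of the 18 were called higher and none lower in edgeR, beside 36.8% of all miRNAs called higher, and by TMM and by library totals none was called. Their median log2 fold change was 0.52, -0.16 and -0.37 on the 3 scalings, each below the median of all miRNAs tested given above. The 5 called were miR-208b-3p, the miRNA of the Myh7 intron, with a log2 fold change of 1.71, miR-27b-3p with 1.26, miR-499-5p with 0.93, miR-29b-3p with 0.92 and miR-143-3p with 0.79.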

How the data were processed

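Small RNA libraries of 8 mice (4 sham, 4 TAC) were analysed. The authors deposited whole-number read counts per mature miRNA for each library, not normalized. The submitters' processing notes list the genome build mm10 and StringTie 1.3.1, and the aligner and the miRNA reference are not given in the sources used here. The members and the lists were chosen with earlier results of these data known. miRNAs with a mean above 100 counts were tested in edgeR 4.0.16 (R 4.3.3) by quasi-likelihood on the counts, with the miRNA total as library size, multiplied in TAC by the reference factor of 0.537. Ratios within a library were compared by two-sided exact permutation tests over 70 arrangements (numpy 2.4.6). Correlations used log2(CPM + 1). Groups came from the labels. Sequences were from RefSeq (GRCm38.p6), with 3 of the 5 members and 593 of the 697 miRNAs matched, and gene positions from GENCODE vM21. The fit was tested on simulated data in which the reference miRNAs were kept unchanged. That test could not show whether the references hold steady in these mice.

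The miRNAs named were the 5 members, the 2 reference miRNAs, 4 muscle miRNAs as ratio partners, the 5 outside the family with the highest r with mmu-miR-378a-3p and with mmu-miR-378c, and the called miRNAs of the metabolic list. As alternatives the fits were repeated with TMM, with library totals, with a reference factor for each library, with either reference alone and with DESeq2 1.42.0, and with other count filters and cut-offs, the replicate number as a block and each library left out. Counting errors assume independent reads. Leaving out both libraries numbered 1 was added after the data were seen.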

Additional observations from a re-analysis of the deposited data

How the results depend on the processing

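The scaling decided the family's calls. With DESeq2's own size factors the log2 fold changes were 0.14 for mmu-miR-378a-3p, 0.31 for mmu-miR-378a-5p, -0.13 for mmu-miR-378b, -0.049 for mmu-miR-378c and 0.11 for mmu-miR-378d. In that fit 0 members were called, beside 2.24% of all miRNAs called higher. By TMM they were 0.10, 0.27, -0.14, -0.075 and 0.081 in the same order, and by library totals -0.11, 0.057, -0.37, -0.30 and -0.14, with 0 members called by either. With 1 reference factor per library mmu-miR-378d was at 0.69 (edgeR adjusted p = 0.0924), and only mmu-miR-378a-5p was called, as with miR-126a-3p alone. These fits called 32.7% and 28.3% of all miRNAs higher. With miR-19b-3p alone 3 members were called, beside 44.4% of all miRNAs called higher. A fold change above 1.5 or no fold change required also gave 3 members. With no fold change required, most of the miRNAs tested passed the adjusted p threshold, counting both directions. mmu-miR-378c passed the adjusted p threshold, but not the fold cut-off, at 0.70 with miR-19b-3p alone and at 0.60 with DESeq2 on the reference scaling. A fold change above 2 left 0 members called. The share of all miRNAs past the 1.5-fold and 2-fold cut-offs was not computed. No other filter or cut-off tried changed a member's direction or its side of the adjusted p threshold.

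Same-numbered libraries did not deviate together over all miRNAs (r = 0.17, -0.37, 0.31 and -0.22). The main fit did not take the numbers as pairs. Whether they mark the pairs of mice that the methods mention is not given. With the replicate number as a block, mmu-miR-378c had a log2 fold change of 0.65 (edgeR adjusted p = 0.0469) and mmu-miR-378b 0.59 (0.0741). In that fit 2 members were called, beside 34.1% of all miRNAs called higher. Without both libraries numbered 1, a choice made after seeing the data, all 5 members were called, beside 101 of 225 miRNAs called higher. There mmu-miR-378b was at 0.95 and mmu-miR-378c at 0.99. By TMM without these libraries they were at 0.23 and 0.26. None of the 5 was called there, beside 0.889% of all miRNAs called higher.

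With each library left out, the log2 fold changes ran from 0.58 to 0.97 for mmu-miR-378a-3p, 0.85 to 1.14 for mmu-miR-378a-5p, 0.29 to 1.09 for mmu-miR-378b, 0.37 to 1.04 for mmu-miR-378c and 0.57 to 1.02 for mmu-miR-378d, with 1 to 5 members called. The share of all miRNAs called higher in these fits ran from 26.6% without Sham3 to 47.5% without Sham1. By TMM the log2 fold changes of the members, in the same order, ran from -0.015 to 0.21, 0.20 to 0.37, -0.34 to 0.32, -0.24 to 0.27 and -0.073 to 0.26. The difference in log2 ratio over mmu-miR-378a-3p ran from 0.055 to 0.28 for mmu-miR-378a-5p, -0.40 to 0.056 for mmu-miR-378b, -0.26 to 0.034 for mmu-miR-378c and -0.14 to 0.099 for mmu-miR-378d. For mmu-miR-378b over mmu-miR-378c it ran from -0.14 to 0.034. For mmu-miR-378a-3p it ran from -0.78 to -0.44 over miR-1a-3p, -0.11 to 0.11 over miR-133a-3p, 0.080 to 0.28 over miR-208a-3p, -0.32 to 0.022 over miR-499-5p, 0.45 to 0.91 over miR-126a-3p and 0.66 to 1.12 over miR-19b-3p. Hairpins with arm ratios that did not overlap numbered 5 to 9 with a library left out, against 4 of 43 with all libraries. Groups already apart stay apart when a library is dropped, so this count could not fall. With a mean above 10 counts and all libraries it was 14 of 110. For mmu-miR-378b and mmu-miR-378d the counts of 106 to 1056 limit precision. The cause of these shifts was not tested.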
